A study of Arabidopsis thaliana and Marchantia polymorpha and Mesotaenium endlicherianum with 120 samples.

Results

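The genes described here are the 100 nuclear genes of Arabidopsis thaliana that were chosen by their fall in RNA with both warmth and light in the wild type, Col-0. Counts were divided by each library's total and put on the usual CPM scale, group means were put on the scale log2(CPM + 1), and 2 effects were taken. The warmth effect was the mean of the 24 minus 16 °C differences at both lights, and the light effect the mean of the light 100 minus light 10 differences at both temperatures. Each of 14947 nuclear genes with a group mean of 5 CPM or more, of 32833 in the table, was scored by the smaller of its falls with warmth and with light, and the 100 highest scores were taken. Only 462 of the 14947 had a score above 0.

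RNA was sequenced from 7-day-old seedlings of Col-0 and of 3 mutant lines, Atpif4-2, Atphyb-9 and Athy5-2, the labels naming each line by its mutant allele. All seedlings spent 2 days at 20 °C under continuous white light of 100 µmol m-2 s-1, followed by 5 days at 16 or 24 °C under continuous white light of 10 or 100 µmol m-2 s-1. The 4 conditions are called cool dim (16 °C, light 10), cool bright (16 °C, light 100), warm dim (24 °C, light 10) and warm bright (24 °C, light 100). Each of the 16 groups had 3 libraries, 48 in all. Nothing in the labels says whether the 3 came from separate cultures, so p-values measure the spread between these libraries, which may be technical.

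Phytochrome B is a red-light receptor whose active form is also lost faster in warmth, which makes it a sensor of both signals. PIF4 is a transcription factor that phytochrome B restrains and that drives elongation growth in warm or shaded plants, and HY5 is a transcription factor that promotes seedling development in light. Genes that fall with warmth include the cold-regulated genes, whose proteins protect membranes and other proteins at low temperature, and genes of walls and transport can fall as growth conditions change.

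Libraries held 30806701 to 44043446 counts. Ribosomal RNA took a median of 8.12% of the counts at light 10 (0.902 to 33.4%) and 0.874% at light 100 (0.535 to 14.1%), so the levels below are CPM of library sizes scaled by the trimmed mean of M-values (TMM). TMM factors ranged from 0.501 to 1.51. Without that scaling the median gene would change with light by 0.41, 0.60 and 0.91 log2 units in Atpif4-2, Atphyb-9 and Athy5-2, and with warmth by 0.29, 0.27 and 0.13. The targeted genes were lower in their own lines, averaged over the 4 conditions, by edgeR's quasi-likelihood test: PIF4 fell by 1.196 ± 0.07 log2 units (SE; adjusted p = 1.8e-16), PHYB fell by 0.59 ± 0.05 (adjusted p = 1.1e-12) and HY5 fell by 0.95 ± 0.09 (adjusted p = 1.8e-11). The libraries show these transcripts lower but not absent, at group means of 10.4 to 25.9, 21.4 to 28.1 and 1.74 to 5.57 TMM-scaled CPM.

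The promoters of the COR413 pair, the members on the list of cold-regulated genes, are shown first because COR413IM1 differed between the lines in 5 of 6 comparisons of warmth and light effects described below. Each sequence is the 250 bases before the annotated start, on the gene's strand, read from TAIR10.1. COR413IM1 (AT1G29395) lies on the minus strand, with its window at chr1:10289667-10289916, and COR413-PM1 (AT2G15970) on the plus strand, with its window at chr2:6949601-6949850. Capitals mark a G-box (CACGTG) and an I-box core (GATAAG) in the first, and a CRT/DRE core (CCGAC), a W-box core (TTGAC) and a TATCCA element in the second.
COR413IM1: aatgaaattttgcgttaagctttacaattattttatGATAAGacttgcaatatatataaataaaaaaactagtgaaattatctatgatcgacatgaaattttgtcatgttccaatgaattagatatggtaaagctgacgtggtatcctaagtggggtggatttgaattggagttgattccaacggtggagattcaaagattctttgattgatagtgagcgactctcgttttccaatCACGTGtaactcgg
COR413-PM1: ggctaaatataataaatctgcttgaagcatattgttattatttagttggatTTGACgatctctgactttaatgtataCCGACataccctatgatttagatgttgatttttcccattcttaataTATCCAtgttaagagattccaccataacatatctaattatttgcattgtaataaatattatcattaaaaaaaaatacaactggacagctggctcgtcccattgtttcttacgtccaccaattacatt

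Neither the G-box nor the CRT/DRE core was common in the set. Both strands were searched in the same window for the 93 members annotated as protein-coding and for 27437 protein-coding genes in all. The G-box stood in 4.301% of the members and 6.49% of all promoters, the CRT/DRE core in 4.301% and 11.97%, and the evening element AAAATATCT in 2.15% and 2.36%. The W-box core stood in 50.5% of the members against 44.9% of all, the TATCCA element in 18.3% against 13.6%, and the I-box core in 14.0% against 12.3%. A match describes the letters in the window and is not a binding site.

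The scores were small for most members. They ran from 0.24 to 1.56 log2 units with a median of 0.39, and 69 members scored under 0.5. The 3 members just inside the limit, AT1G01300 (an aspartyl protease), GER3 (a germin-like wall protein) and AT1G69890 (an actin cross-linking protein), each scored 0.24. The 3 genes just outside it, AT1G26800, CALS1 and AT5G51180, scored 0.24, 0.23 and 0.23. The median warmth effect was -0.55 (-3.07 to -0.24) and the median light effect -0.52 (-3.36 to -0.24). All these values chose the members and carry no test.

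How a member reached its score differed, and 4 kinds were told apart by their counts. In 27 members 1 of the 3 Col-0 cool dim libraries, replicate 1 in each case, was more than 2 times the next library. In 14 members some group held both a library at 0 and another of 100 counts or more, and 6 members lay in or within 5000 bases of ribosomal RNA genes. The remaining 53 met none of these 3 conditions and are called even for short, although some of them, such as ERF104 and HSPRO2, still spread widely in Col-0 cool dim. Even members had a median score of 0.34, those with 1 high library 0.46, those near ribosomal DNA 0.45 and those with zeros 0.55.

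The highest scores belonged to the uneven kinds. TCP9 (AT2G45680, a TCP-family transcription factor at chr2:18820242-18821889, minus strand) ranked first with a score of 1.56, from counts of 0, 1344 and 0 in Col-0 cool dim, 0, 1280 and 677 in cool bright, 675, 0 and 625 in warm dim and 0 in all 3 warm bright libraries. The gene AT2G45685 overlaps 1625 of its bases on the other strand. Its counts in the same order were 1701, 1 and 1584, then 3297, 1280 and 677, then 675, 1537 and 926, and then 1638, 1720 and 1681. Where TCP9 was at 0 its partner held the reads, and in 13 of the 48 libraries the counts of the pair were equal.

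**Figure D1:**
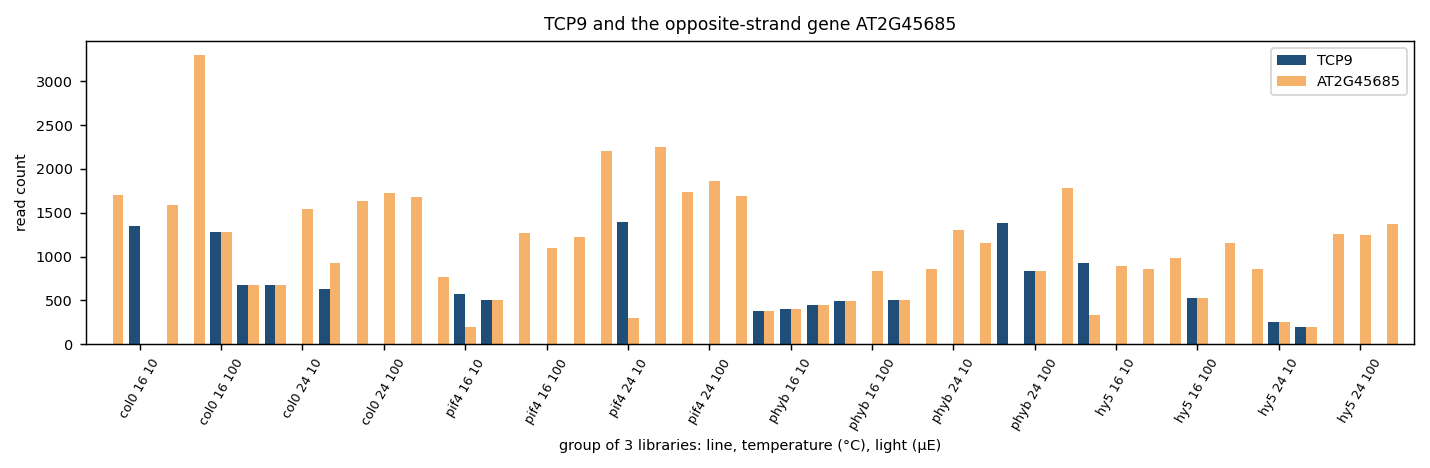
Read counts of TCP9 (blue) and of AT2G45685, which overlaps it on the opposite strand (orange), in each of the 48 libraries, in groups of 3 by line, temperature and light. Libraries with no blue bar have an orange one, and the pair has equal bars in 13 libraries.

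Uneven counts of this kind were found in 195 of 22828 tested genes (0.854%), in 14 of the 100 members and in 6 of the 16 highest scores. Of these 14 members 12 overlap a gene on the opposite strand (85.7%), against 10.5% of the other members and 27.3% of the other tested genes. Their total of 245 library values at 0 had a partner above 0 in all 245. With member and partner added together, 0 of the 12 pairs had a score above 0. How the counts were assigned to strands is not given in the sources used here, so reads of the 2 genes of a pair cannot be told apart, and fold changes of these 14 members are not described further. Besides TCP9 they included AT1G10150 (a carbohydrate-binding protein, rank 3), AT5G04905 (a noncoding RNA, rank 5), PRA7, LHB1B2 (a chlorophyll-binding antenna protein), SESA5 (a seed storage albumin), AT1G50745, scpl50, SIB2, CYP82C2, ABCG2, AT1G04647 and SIP4.

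The 27 members with 1 high library included 5 of the 12 highest scores. EXT4, a wall extensin, had 10443, 1209 and 1094 CPM in the cool dim Col-0 libraries, against 734 to 1301 in warm bright. AT2G17740, a C1-domain protein, had 17.2, 0.121 and 0.294 CPM there and 0.361 to 0.696 in warm bright. AZI1, a lipid-transfer-type protein of systemic immunity, had 1246, 529 and 378 CPM, all above its 107 to 141 in warm bright. For EXT4 and AT2G17740 the other 2 cool dim libraries overlapped the warm bright ones or lay below them, whereas those of AZI1 stayed apart. AT1G15010 (annotated as a mediator subunit) had 28.4, 11.8 and 4.12 CPM in cool dim and AT1G77640 (an AP2-type DNA-binding protein) 26.2, 7.55 and 3.19. Replicate 1 was the highest cool dim library in 67 of the 80 members outside ribosomal DNA and without zeros (83.8%), and in 36.4% of 13007 tested genes of 5 CPM or more. Chosen again without that library, the rule kept 62 of the 100 members, and 42 of the 53 even ones. With TMM-scaled CPM in the rule it kept 65 members and 26 of the 53 even ones.

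**Figure D2:**
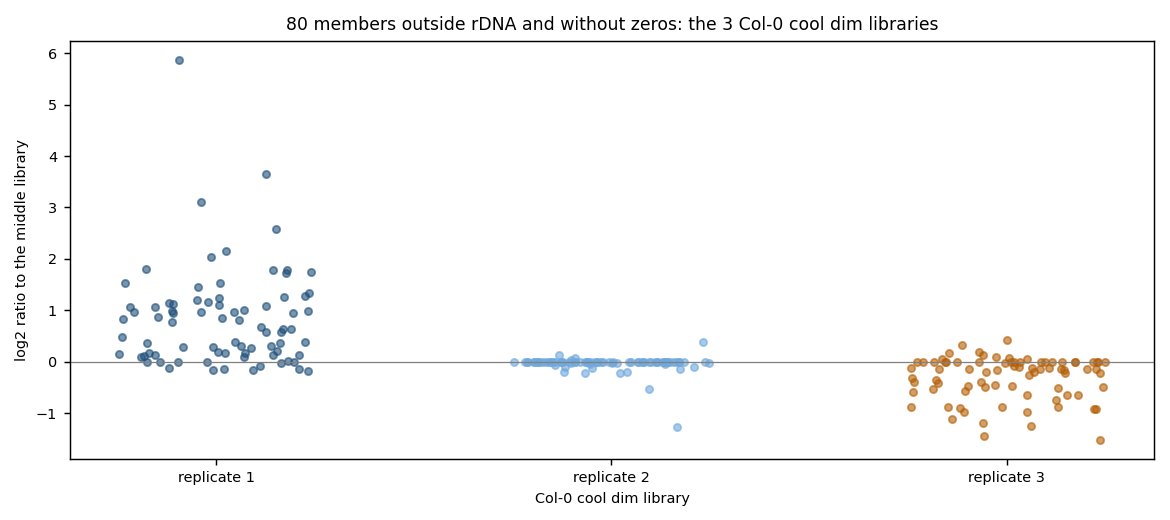
Log2 ratio of each Col-0 cool dim library to the middle one of the 3, for the 80 members outside ribosomal DNA and without zeros, with 1 point per member and library. Points of replicate 1 reach above the line in most members, up to the 17.2 CPM of AT2G17740.

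The ribosomal members were 18S RNA loci AT3G41768 and AT2G01010, the small ribosomal RNA loci AT3G41979 and AT2G01020, and the neighbours AT2G01021 and AT3G06355. AT2G01010 had 29977, 40422 and 20534 CPM in Col-0 cool dim and 1825, 1481 and 1190 in warm bright, with the cool dim libraries all higher. The 18S loci are near-identical copies whose reads cannot be assigned to 1 of them, and their share of a library also depends on how ribosomal RNA was removed, which is not given in the sources used here.

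In Col-0 the cool dim mean was the highest of the 4 for 94 members and the warm bright mean the lowest for 85. Of the even members 52 of 53 were highest in cool dim and 48 lowest in warm bright, and every cool dim library exceeded every warm bright one in all 53, which the rule favours. The shares of all genes with these orders were not counted, so these numbers describe what the rule chose. In RNA of seedlings fewer cells of a type and less RNA per cell cannot be told apart. AT3G22125, an uncharacterized protein gene with the top score among the even members (0.84), had 2472, 1824 and 1903 CPM in cool dim, 718, 645 and 775 in cool bright, 813, 843 and 849 in warm dim and 549, 360 and 452 in warm bright. It overlaps AT3G22142 over 4555 bases on the other strand.

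The mutant lines were not used by the rule, and in them the members were tested with edgeR's quasi-likelihood F test over all 22828 genes of the 48 libraries, called at an adjusted p under 0.05. Light lowered most members in each line. Called lower at light 100 were 77 members in Atpif4-2 (23.5% of all tested genes), 81 in Atphyb-9 (25.9% of all) and 83 in Athy5-2 (29% of all), with median changes of -0.95, -1.09 and -1.47 log2 units, and 0 (25% of all), 1 (28.5%) and 2 (33.1%) members were called higher. Lower with light in all 3 lines were 69 members, against 17.4% of all tested genes. Among the even members 49, 50 and 48 of 53 were lower. The next 100 genes of the ranking had 76, 79 and 78 called lower with light in the same lines, nearly as many as the members.

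Warmth lowered fewer of them. Called lower at 24 °C were 41 members in Atpif4-2 (17.1% of all tested genes), 33 in Atphyb-9 (16.3%) and 29 in Athy5-2 (25.5%), and called higher were 2 (18.4% of all), 21 (16.4%) and 34 (24.2%). The members' median warmth change was -0.48, -0.01 and 0.04 log2 units, and that of the 53 even members -0.55, -0.42 and -0.42. In Athy5-2 the share called lower was near the share of all genes, and 63 members were called in either direction (49.7% of all). The next 100 genes of the ranking had 52, 37 and 46 called lower with warmth in the same 3 lines, no fewer than the members. With library sizes left unscaled, 31, 20 and 25 members were called lower with warmth (5.51, 5.93 and 16.6% of all tested genes). Called higher with warmth were then 9, 32 and 36 (36.5, 35 and 28.9%). With light 54, 54 and 52 were then lower (8.89, 7.86 and 6.66%) and 1, 6 and 12 higher (48.4, 59.5 and 70.8%).

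Both falls together were found in 40 members in Atpif4-2 (3.96% of all tested genes), 31 in Atphyb-9 (3.68%) and 26 in Athy5-2 (6.05%). Even members made up 34, 27 and 25 of these. A fall with light beside a rise with warmth was found in 1 member in Atpif4-2 (6.56% of all), 17 in Atphyb-9 (6.81%) and 31 in Athy5-2 (10.9%). Accordingly the cool dim mean was the highest for 85 members in Atpif4-2, while in Atphyb-9 it was the highest for 52 and the warm dim mean for 45, and in Athy5-2 for 30 and 61. The orders of means were not counted over all genes, so no share stands beside them.

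**Figure D3:**
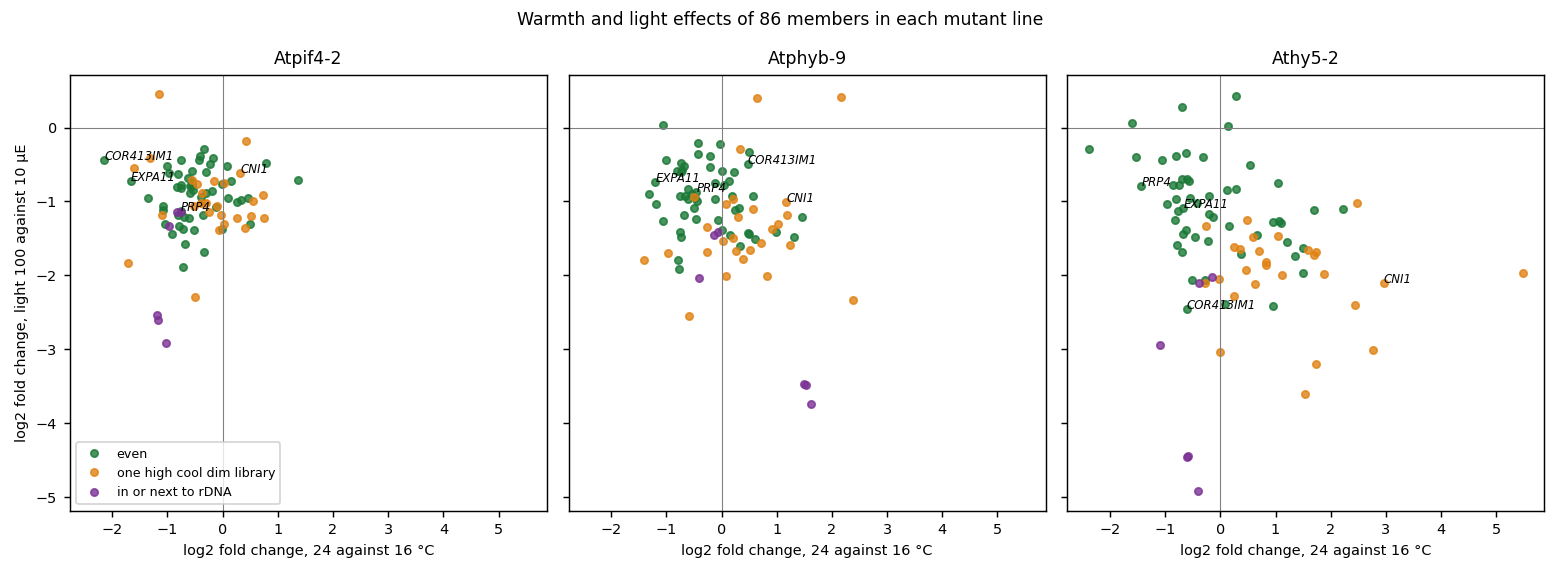
Log2 fold change of 86 members with warmth (24 against 16 °C, x axis) and with light (100 against 10, y axis) in each mutant line, coloured by kind; the 14 members with zeros are left out. Most points lie left of 0 and below 0 in Atpif4-2, and in Athy5-2 many with 1 high Col-0 library lie to the right, 17 of the 27 called higher with warmth.

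The members with 1 high Col-0 library differed in count from the even ones for warmth, without a test of that difference. Of these 27, 4 were called lower and 1 higher with warmth in Atpif4-2, 4 lower and 7 higher in Atphyb-9, and 0 lower and 17 higher in Athy5-2 by edgeR. The shares called lower lay near or below those of all tested genes, 17.1, 16.3 and 25.5%, while 18.4, 16.4 and 24.2% of all were called higher. With light 20, 24 and 27 were called lower (23.5, 25.9 and 29% of all). Of the 14 members with zeros, 0 were called lower with warmth in any line and 2, 1 and 2 lower with light.

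Lower with both warmth and light in all 3 mutant lines were 16 members, against 241 of all tested genes (1.06%). They were the wall genes EXPA11, XTH8, PRP4, GALS2, AT1G04800, DRT100, AT5G49215 and AT1G62500, the membrane and protection genes COR413-PM1 and WIH3, the transporters AMT1;3 and WR3, and UGT71C2, LOL1, TUA5 and AT1G16510. All 16 were even members. Each test averaged over the other factor, so a fall need not be present at both of its levels. In Athy5-2 at light 10 the warm and cool libraries overlapped for UGT71C2 and for AT1G16510. Those of WR3 were higher in warm dim than in cool dim there. With library sizes left unscaled 3 of the 16 passed all 6 tests and 7 kept a negative sign in all 6, and with the ribosomal RNA share as a covariate 10 passed and 13 kept the sign.

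Of 5 members for cold and stress protection, all 5 were lower with warmth in Atpif4-2 (17.1% of all tested genes), 4 in Atphyb-9 (16.3%) and 4 in Athy5-2 (25.5%). COR413-PM1, a cold-regulated protein of the plasma membrane, had 353, 324 and 307 CPM in Col-0 cool dim, 120, 132 and 151 in cool bright, 195, 202 and 172 in warm dim and 162, 116 and 127 in warm bright. Cool dim stood apart from the other 3 conditions, and the cool bright and warm bright libraries overlapped. In Atpif4-2 it had 547, 493 and 511 CPM in cool dim against 121, 111 and 117 in warm bright. It fell with warmth by 1.09 ± 0.11 log2 units (edgeR adjusted p = 1.8e-10) in Atpif4-2, 0.61 ± 0.11 (adjusted p = 2.4e-05) in Atphyb-9 and 0.70 ± 0.11 (adjusted p = 1.0e-06) in Athy5-2, with every warm bright library below every cool dim library in each line.

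COR413IM1, the family's protein of the chloroplast inner envelope, took a different course in each line. In Col-0 it had 82.8, 76.4 and 69.9 CPM in cool dim and 14.0 to 23.1 in the other 9 libraries. Atpif4-2 had 61.8, 60.8 and 53.7 CPM in cool dim, 41.2, 25.5 and 31.9 in cool bright, and 8.64 to 11.8 in all 6 warm libraries. The warm libraries there were below the cool ones at both lights, without overlap.
Atphyb-9 had 57.3, 73.0 and 48.8 CPM in cool dim, 30.9, 30.9 and 31.6 in cool bright, 76.5, 54.3 and 52.7 in warm dim and 71.7, 50.8 and 53.5 in warm bright. The 3 warm bright libraries all exceeded the 3 cool bright ones, so that only the light effect at 16 °C was a clear fall. Athy5-2 had 122, 161 and 170 CPM in cool dim and 64.5, 73.1 and 62.3 in warm dim, but 16.7 to 19.6 in all 6 bright libraries.
With warmth COR413IM1 fell by 2.15 ± 0.12 log2 units in Atpif4-2 (edgeR adjusted p = 1.8e-17) and by 0.61 ± 0.12 in Athy5-2 (adjusted p = 2.8e-05), and rose by 0.47 ± 0.12 in Atphyb-9 (adjusted p = 0.0013). With light it fell by 0.50 ± 0.12 in Atphyb-9, a change that was 0.059 with library sizes unscaled. The warmth effect was higher in Atphyb-9 than in Atpif4-2 by 2.62 ± 0.17 and the light effect lower in Athy5-2 than in Atphyb-9 by -1.95 ± 0.16.

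SAG21, a late-embryogenesis-abundant protein of mitochondria, had 385, 314 and 272 CPM in Col-0 cool dim and 70.1, 73.6 and 61.5 in warm bright. In Athy5-2 it had 382, 558 and 547 CPM in cool dim and 703, 673 and 814 in warm dim, so that the warm dim libraries were all the higher, while in warm bright it had 106, 89.0 and 104. It fell with light by 1.58 ± 0.11 in Atpif4-2, 1.91 ± 0.11 in Atphyb-9 and 2.39 ± 0.12 in Athy5-2 (edgeR adjusted p = 2.8e-20 in the last). WIH3, a cysteine-rich transmembrane-module protein, had 13.6 to 17.6 CPM in Col-0 cool dim and 4.45 to 5.40 in warm bright, without overlap, and fell with warmth in the mutants by 0.80 to 1.00 log2 units. GSTU22, a glutathione transferase, fell with warmth by 0.97 ± 0.17 in Atpif4-2 (edgeR adjusted p = 1.8e-05) and by 0.70 ± 0.17 in Athy5-2 (adjusted p = 6.2e-04), but did not pass the test for light in Athy5-2.

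Other cold-regulated genes were counted in a list of 20 that includes the COR413 pair. Of the 20, 17 were lower and 1 higher with warmth in Atpif4-2, 11 and 3 in Atphyb-9 and 11 and 2 in Athy5-2. With light 8, 5 and 13 were lower and 7, 8 and 2 higher. Of all tested genes 17.1, 16.3 and 25.5% were lower and 18.4, 16.4 and 24.2% higher with warmth. With light 23.5, 25.9 and 29% of all were lower and 25, 28.5 and 33.1% higher. The 5 of the list lower with light in Atphyb-9 thus lay near the share of all. COR15A, a chloroplast stroma protein, fell with warmth by 3.38 ± 0.28 log2 units in Atpif4-2 while rising with light by 1.75 ± 0.28. Of the CBF regulators of cold genes, CBF2 did not pass the test for warmth in any of the 3 lines. CBF1 and CBF3 fell with warmth in Atpif4-2 by 2.85 ± 0.85 and 2.02 ± 0.50 (edgeR adjusted p = 0.0084 and 0.0014). Neither passed in Atphyb-9 or Athy5-2. The list's median warmth change was -1.46, -0.40 and -0.53, and its median light change -0.25, -0.08 and -1.05, beside 0.02, 0.02 and -0.01 and 0.03, 0.04 and 0.08 over all tested genes. LHB1B2 is the one member among 17 antenna genes, of which 16 were lower with light in every mutant line, and the other 13 lists held no member.

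**Figure D4:**
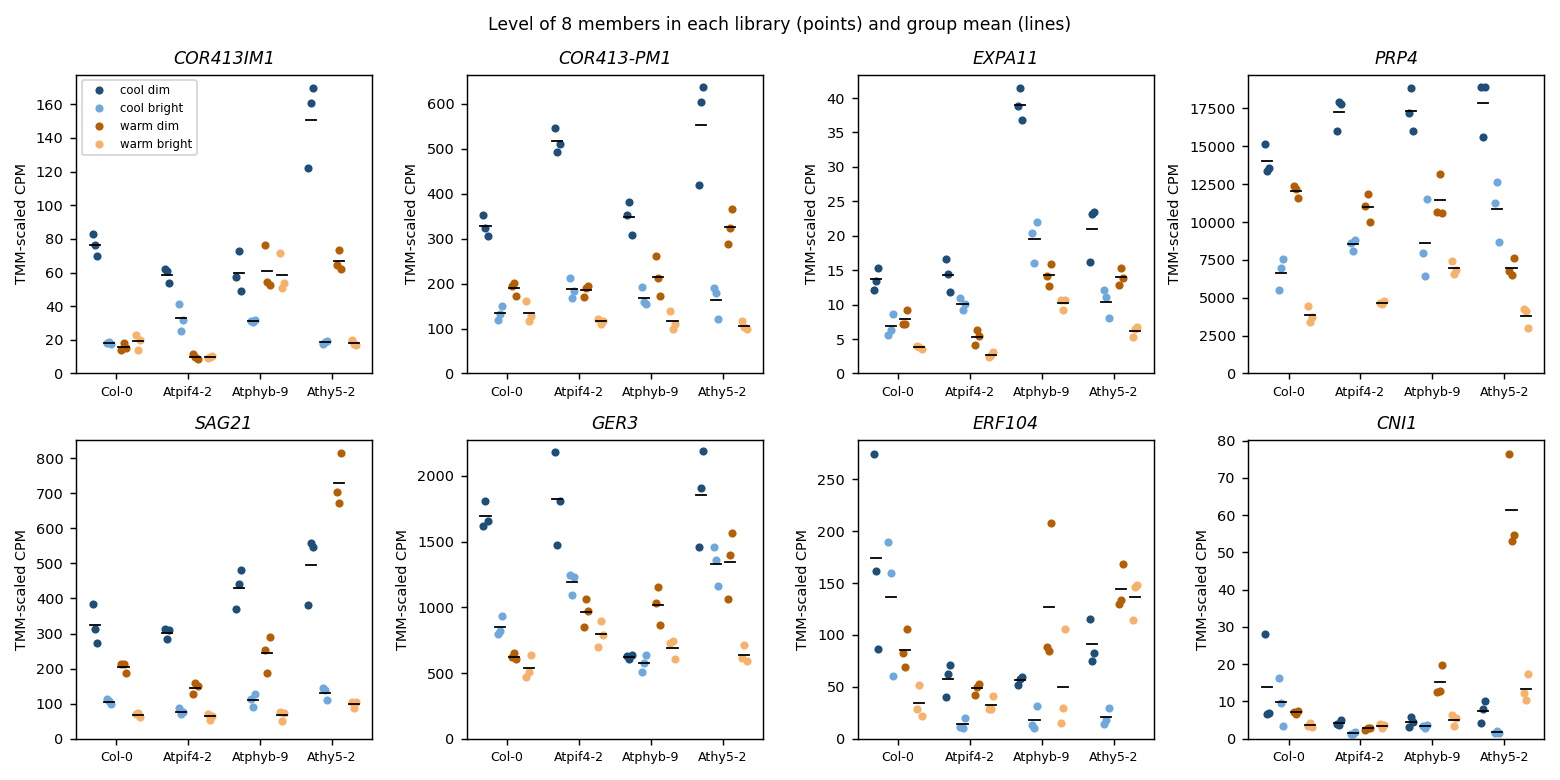
TMM-scaled CPM of 8 members in each library (points) and the mean of 3 (lines), by line and condition. COR413IM1 is at 8.64 to 11.8 in the 6 warm Atpif4-2 libraries and 50.8 to 76.5 in the 6 warm Atphyb-9 libraries, and CNI1 reaches 76.4 in warm dim Athy5-2.

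The 19 wall and surface genes gave the largest group with a known role. With warmth 13 were lower in Atpif4-2 (17.1% of all tested genes), 13 in Atphyb-9 (16.3%) and 10 in Athy5-2 (25.5%). Called higher were 1 (18.4%), 1 (16.4%) and 3 (24.2%). With light 15 (23.5%), 19 (25.9%) and 19 (29%) were lower and none was higher by edgeR (25, 28.5 and 33.1% of all). EXPA11, an expansin that loosens walls, had 12.2, 13.4 and 15.4 CPM in Col-0 cool dim and 3.98, 3.84 and 3.58 in warm bright. In Atphyb-9 it had 38.8, 41.5 and 36.8 CPM in cool dim and 10.6, 9.28 and 10.6 in warm bright. Its levels in Atphyb-9 were above those of Col-0 in every condition, and averaged over the 4 conditions it was higher there by 1.32 ± 0.09 log2 units, against the Col-0 libraries that also chose it. EXPA11 fell with warmth by 1.66 ± 0.12 in Atpif4-2 (edgeR adjusted p = 4.2e-14), 1.197 ± 0.12 in Atphyb-9 (adjusted p = 9.4e-11) and 0.67 ± 0.12 in Athy5-2 (adjusted p = 9.8e-06).

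PRP4, a proline-rich wall protein, had 15168, 13380 and 13565 CPM in Col-0 cool dim, 5496, 6936 and 7552 in cool bright, 12368, 12183 and 11612 in warm dim and 4422, 3371 and 3703 in warm bright. Light made the larger difference in Col-0, and the 4 conditions did not overlap. In Athy5-2 the order of the middle pair turned, with 11252, 12620 and 8650 CPM in cool bright and 6792, 6502 and 7632 in warm dim. Its warmth change in Athy5-2, -1.43 ± 0.11, was lower than that in Atphyb-9 by -0.98 ± 0.15 and than that in Atpif4-2 by -0.67 ± 0.15. AT4G38775, another member, overlaps PRP4 over 513 bases on the opposite strand, and its values cannot be told apart from reads of PRP4.

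XTH8, an enzyme that cuts and rejoins xyloglucan, fell with warmth by 0.55 ± 0.11, 0.49 ± 0.11 and 0.80 ± 0.11 log2 units and with light by 0.84 ± 0.11, 0.95 ± 0.11 and 0.97 ± 0.11 in Atpif4-2, Atphyb-9 and Athy5-2. GALS2, a galactan synthase, fell by 0.68 to 0.86 with warmth and by 0.77 to 1.18 with light. With library sizes unscaled the light change of GALS2 in Athy5-2 turned to 0.074. GER3, a germin-like protein, differed in direction between the lines for warmth. It had 1619, 1807 and 1659 CPM in Col-0 cool dim and 629, 605 and 637 in Atphyb-9 cool dim, where warm dim had 1035, 1151 and 862. It fell with warmth by 0.75 ± 0.10 in Atpif4-2 and by 0.76 ± 0.10 in Athy5-2 and rose by 0.49 ± 0.10 in Atphyb-9 (edgeR adjusted p = 2.1e-04), and the Atphyb-9 effect was higher than the Atpif4-2 effect by 1.24 ± 0.14. KCS8, an enzyme of very-long-chain fatty acids, was likewise lower in Atphyb-9 cool dim (97.5, 100.8 and 78.0 CPM) than in Col-0 cool dim (206, 194 and 179), without overlap. For GER3 and KCS8 the Col-0 libraries also chose the gene, and the rule favours high values in cool dim Col-0.

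AZI1 fell with warmth by 1.71 ± 0.24 in Atpif4-2 (edgeR adjusted p = 6.6e-07) and by 0.97 ± 0.23 in Atphyb-9 (adjusted p = 0.0014). In Athy5-2 it had 1038, 1265 and 1423 CPM in cool dim and 3029, 3138 and 4897 in warm dim, but 508, 506 and 342 in cool bright and 182, 131 and 138 in warm bright. Warmth thus went with higher levels at light 10 and lower levels at light 100, and the interaction was -3.16 ± 0.47 log2 units (edgeR adjusted p = 4.3e-06). A list of 13 root markers, of which none was at 0 in every library, summed to 221 to 337 CPM in Col-0 cool dim and 205 to 246 in warm bright, and to 465 to 709 and 189 to 251 in Atphyb-9. With warmth 6, 7 and 7 of the 13 were lower in the 3 mutant lines (17.1, 16.3 and 25.5% of all tested genes) and 0 higher. With light 4, 4 and 4 of these markers were lower (23.5, 25.9 and 29% of all). Higher with light were 0, 3 and 6 of them (25, 28.5 and 33.1%), with a median of 0.85 log2 units in Athy5-2. Their part in the falls of wall genes was not tested.

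The 14 transcription factors and VQ proteins were called lower with light far more than with warmth. With light 12 were lower in each of the 3 lines (23.5, 25.9 and 29% of all tested genes). With warmth 0, 0 and 1 were lower (17.1, 16.3 and 25.5% of all) and 1, 6 and 10 higher (18.4, 16.4 and 24.2%). The group's median warmth change was 0.26, 0.55 and 1.00 log2 units. ERF104, an ethylene response factor of defence, had 275, 162 and 86.4 CPM in Col-0 cool dim, 189, 160 and 60.4 in cool bright, 82.3, 68.9 and 106 in warm dim and 28.4, 52.1 and 22.3 in warm bright. The Col-0 cool libraries spread widely and overlapped the warm dim ones, and the warm bright libraries lay below all others.
In Athy5-2 ERF104 had 14.2, 18.2 and 29.5 CPM in cool bright and 115, 147 and 148 in warm bright, without overlap. The order was the reverse in Col-0, where the rule favours a fall with warmth. It rose with warmth by 1.69 ± 0.37 in Athy5-2 (edgeR adjusted p = 2.8e-04) and by 1.31 ± 0.37 in Atphyb-9 (adjusted p = 0.0061). TEM1, a repressor of flowering, rose with warmth by 1.06 ± 0.18 in Athy5-2 and fell with light by 0.89 ± 0.19, 1.45 ± 0.19 and 1.27 ± 0.19 in the 3 lines. RAV1, a related AP2/B3 factor, rose with warmth by 0.58 ± 0.19 in Atphyb-9 and 1.04 ± 0.19 in Athy5-2. WRKY22, a factor of immune signalling, had 66.2, 78.2 and 69.5 CPM in Athy5-2 warm dim and 20.0, 12.6 and 16.7 in cool dim, and was the one member of this group called higher with warmth in Atpif4-2, by 0.75 ± 0.30 (edgeR adjusted p = 0.048). AT1G64380, an AP2-type protein, was the one called lower with warmth in Athy5-2, by 0.46 ± 0.19 (adjusted p = 0.040).

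**Figure D5:**
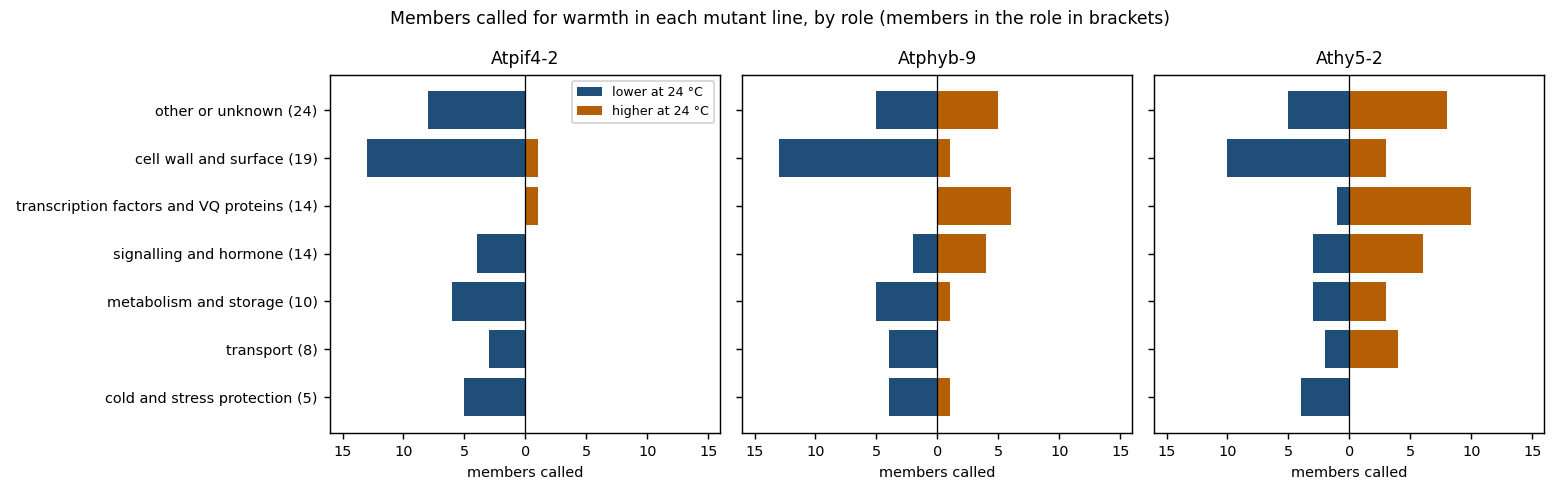
Number of members called lower (left, blue) or higher (right, brown) at 24 than at 16 °C in each mutant line, by role, for the roles with 5 members or more. Wall genes stand on the left in each line, and transcription factors on the right in Athy5-2, 10 of 14.

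Among 14 signalling and hormone genes 9, 11 and 13 were lower with light (23.5, 25.9 and 29% of all tested genes). With warmth 4, 2 and 3 were lower (17.1, 16.3 and 25.5% of all) and 0, 4 and 6 higher (18.4, 16.4 and 24.2%). The shares lower with warmth in Atphyb-9 and Athy5-2 lay near or below those of all genes. CNI1, a RING ubiquitin ligase of the carbon and nitrogen response, had 28.0, 6.73 and 6.82 CPM in Col-0 cool dim and 3.42, 4.16 and 3.29 in warm bright. In Athy5-2 it had 4.15, 7.98 and 10.2 CPM in cool dim and 76.4, 53.1 and 54.7 in warm dim. The Athy5-2 warm dim libraries were the 3 highest of all 48, and the rise with warmth there was 2.96 ± 0.31 log2 units (edgeR adjusted p = 1.4e-09). These libraries also formed the group with the highest mean ribosomal RNA share of the 16, at 23.3, 29.4 and 33.4%, and TMM factors of 0.695, 0.639 and 0.501. With the ribosomal RNA share as a covariate the rises in Athy5-2 were 2.96 for CNI1, 1.36 for ATL6 and 1.88 for ACS7, and the interaction of AZI1 was -3.04, all still called. That fit keeps a mean for each group, so the covariate rests on spread within groups. It cannot separate a share that differs between groups from the groups themselves, and the part of ribosomal RNA in these rises was not tested. The CNI1 relative ATL6 had 86.1, 71.7 and 87.4 CPM in Athy5-2 warm dim against 21.5, 27.9 and 31.9 in cool dim, a rise of 1.35 ± 0.15 over both lights. ACS7, which makes the precursor of ethylene, had 29.7, 48.1 and 45.6 CPM there and 2.07 to 5.18 in cool dim. HSPRO2, a gene of basal resistance, had 43.7, 60.3 and 72.0 CPM in Atpif4-2 cool dim against 517, 265 and 139 in Col-0, the libraries that chose it. LOL1 is a zinc-finger protein of cell death control and AT1G16510 an auxin-responsive SAUR gene. They were the 2 of this group lower with both averaged effects in every mutant line. At light 10 in Athy5-2 the warm and cool libraries of AT1G16510 overlapped.

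A list of 13 genes of touch and rapid stress held no member. With warmth it had 0, 8 and 12 called higher in Atpif4-2, Atphyb-9 and Athy5-2 (18.4, 16.4 and 24.2% of all tested genes). It had 0 called lower with warmth (17.1, 16.3 and 25.5%). With light it had 1, 5 and 5 called lower (23.5, 25.9 and 29%) and 0 higher (25, 28.5 and 33.1%). Its summed level in Col-0 was 919 CPM in cool dim, 876 in cool bright, 278 in warm dim and 219 in warm bright. Its part in the values of the transcription factors was not tested.

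Of 10 genes of metabolism and storage, 6, 5 and 3 were lower with warmth (17.1, 16.3 and 25.5% of all tested genes). Called higher with warmth were 0, 1 and 3 (18.4, 16.4 and 24.2%), and 7, 7 and 8 were lower with light (23.5, 25.9 and 29%). In Athy5-2 the share lower with warmth was near the 25.5% of all tested genes. NIT2, a nitrilase with tandem copies whose reads may be shared, had 68.2, 52.6 and 46.9 CPM in Col-0 cool dim and 12.1 to 12.5 in warm bright. In Athy5-2 it had 149, 79.9 and 119 CPM in warm dim, all above its 49.1, 68.8 and 59.9 in cool dim. UGT71C2, a glucosyltransferase, fell with light by 1.31 ± 0.18, 1.79 ± 0.18 and 2.07 ± 0.18 log2 units. TI1, a trypsin inhibitor, rose with warmth by 1.497 ± 0.20 in Athy5-2 (edgeR adjusted p = 1.1e-07) and fell by 0.75 ± 0.20 in Atphyb-9 (adjusted p = 0.0034), a difference of 2.25 ± 0.28. SUS3, a sucrose synthase, fell with light by 0.79 ± 0.15, 0.38 ± 0.15 and 1.02 ± 0.15, of which the change in Atphyb-9 turned to 0.15 with library sizes unscaled. SESA5 stood among the members with zeros. In Col-0 the list of 11 seed reserve genes summed to 65.8 to 286 CPM in cool dim and 15.3 to 75.5 in cool bright. It summed to 153 to 571 in warm dim and 41.9 to 90.5 in warm bright.

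Of 8 transporters 3, 4 and 2 were lower with warmth (17.1, 16.3 and 25.5% of all tested genes). Called higher with warmth were 0, 0 and 4 (18.4, 16.4 and 24.2%). AMT1;3, a root ammonium transporter, had 25.9, 25.4 and 32.5 CPM in Col-0 cool dim, 16.7, 22.2 and 21.7 in cool bright, 28.6, 28.1 and 27.7 in warm dim and 12.2, 13.2 and 12.4 in warm bright. In Col-0 the warm libraries lay below the cool ones at light 100, while those at light 10 overlapped. WR3, a partner protein of nitrate uptake, fell with warmth by 1.01 ± 0.10, 0.80 ± 0.10 and 0.57 ± 0.10 as averages over both lights in the 3 mutant lines. In Athy5-2 it had 48.6, 72.4 and 67.9 CPM in cool dim, 82.9, 88.2 and 74.8 in cool bright, 102, 85.1 and 86.3 in warm dim and 27.0, 24.1 and 25.3 in warm bright. There both the warm dim and the cool bright libraries all exceeded the cool dim ones, so the averaged falls came from warm bright alone, and the interaction was -2.22 ± 0.20. ABCG37, an exporter of auxin-like compounds, went the other way in Athy5-2, where warm bright held 81.4, 69.9 and 71.0 CPM and cool dim 34.9, 49.4 and 52.0, without overlap. It was the one even member called higher with light there, by 0.42 ± 0.10 (edgeR adjusted p = 2.3e-04). Warm bright Col-0, among the libraries that chose it, held 33.1 to 36.0 CPM. TUA5, an alpha-tubulin with a near-identical copy, fell with both factors in the 3 mutant lines by 0.21 to 0.70 log2 units, but with library sizes unscaled its light change turned to 0.17 in Athy5-2 and 0.032 in Atphyb-9, and its warmth change to 0.045 in Atphyb-9.

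The interaction of warmth and light was tested on the log2 scale in each mutant line. A positive interaction, a warmth change that was higher (a smaller fall or a rise) at light 100 than at light 10, was called in 26 members in Atpif4-2 (11.3% of all tested genes), 3 in Atphyb-9 (3.87%) and 10 in Athy5-2 (15.7%). A negative one was called in 3 (9.46%), 1 (2.87%) and 26 (16.8%). In either direction 29 members were called in Atpif4-2 (20.7% of all), 4 in Atphyb-9 (6.74%) and 36 in Athy5-2 (32.5%). These totals lay near the share of all genes in Atphyb-9 and Athy5-2, and the positive calls in Athy5-2 lay below it. In Atpif4-2 the positive calls were led by NIT2 (1.21 ± 0.27), AT1G16510 (1.56 ± 0.37) and AT1G69890 (1.54 ± 0.36), and in Athy5-2 by KCS8 (1.55 ± 0.19), AT1G04800 (a glycine-rich protein, 1.44 ± 0.25) and AT3G12710 (a DNA glycosylase, 1.12 ± 0.17). In Athy5-2 KCS8 and AT3G12710 were higher in every warm bright than in every cool bright library. With library sizes unscaled the split of called members turned to 9 positive and 10 negative in Atpif4-2 and to 29 and 14 in Athy5-2. Of all tested genes 3.64 and 20.7% were then positive and negative in Atpif4-2, and 48.8 and 4.23% in Athy5-2.

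Levels over the 4 conditions were compared with Col-0, whose libraries had also chosen the members, so these counts are not independent of the rule. Called lower than Col-0 were 37 members in Atpif4-2 (6.65% of all tested genes), 13 in Atphyb-9 (16.5%) and 9 in Athy5-2 (23%), and called higher were 8 (6.93%), 27 (17.1%) and 46 (22.8%). In Atpif4-2 12 of the 14 transcription factors and VQ proteins and 8 of the 14 signalling genes were among the lower. Of the 37 lower members 17 were among the 27 with 1 high Col-0 library, and 32 were called without that library. In Athy5-2 13 of the 19 wall genes and all 5 protection genes were higher. With library sizes unscaled the calls were 21 lower (29.4% of all tested genes) and 20 higher (7.78%) in Atphyb-9. In Athy5-2 they were then 23 lower (50.7%) and 28 higher (5.94%).

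The differences between mutant lines were tested directly. The warmth effect differed between Atphyb-9 and Atpif4-2 in 15 members (12.3% of all tested genes), of which 13 were higher in Atphyb-9 (5.16% of all) and 2 lower (7.14%). It differed between Athy5-2 and Atpif4-2 in 34 (24.8%), of which 31 were higher in Athy5-2 (10.7%) and 3 lower (14.1%). It differed between Athy5-2 and Atphyb-9 in 32 (17.5%), of which 21 were higher in Athy5-2 (7.77%) and 11 lower (9.72%). The light effect differed between Atphyb-9 and Atpif4-2 in 4 members (4.68%), 3 of them higher in Atphyb-9 (2.26%) and 1 lower (2.41%). It differed between Athy5-2 and Atpif4-2 in 30 (17.5%), 8 of them higher in Athy5-2 (8.13%) and 22 lower (9.41%), and between Athy5-2 and Atphyb-9 in 11 (7.21%), 4 higher (3.01%) and 7 lower (4.2%). The 3 tests for each factor share lines and so are not independent of each other.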

How the data were processed

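Counts per gene of 48 Arabidopsis libraries were deposited by the authors as whole numbers with no normalization found in the values; tables of 3 other species were not used here. Per the labels' protocols, a NucleoSpin kit for plant RNA was used and BGI sequenced paired reads of 100 bases on DNBseq. The submitters' processing notes list FastQC 0.11.5 with HISAT2 2.1.0 as tools. Of the counter, genome build, annotation and strand setting nothing is stated in the sources used here. Gene names, positions and promoter sequences came from RefSeq's TAIR10.1, in which 32548 of 32833 identifiers matched.

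All libraries were fitted together in R 4.3.3 by edgeR 4.0.16 (with limma 3.58.1), taking 1 mean for each of 16 groups, TMM factors, filterByExpr with its minimum count of 10 (22828 genes kept) and robust quasi-likelihood F tests on 32 residual degrees of freedom. The Benjamini-Hochberg adjustment ran over all 22828 genes in each comparison, and 18 comparisons were tested. Errors of log2 changes are standard errors; warmth and light effects are means over the other factor. No test was made in Col-0, whose values chose the members. On data simulated from these genes the fit recovered 91 of 100 genes changed by 1 log2 unit and 100 of 100 changed by 2, with 3 unchanged genes called.

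The members, the gene lists and the roles were chosen with earlier results of these data known. Named are the 12 highest scores, members on a list, the 3 called members of smallest adjusted p in each direction of each comparison, those at the rank limit and the targeted genes; others that illustrate a role were chosen after their values were seen. Alternatives were another scaling (RLE), no scaling, no filter, DESeq2 1.42.0, only the lines compared, the replicate number as a block, ribosomal RNA dropped or as a covariate, each library left out, and other forms of the rule. The values of 1 member are not reported here.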

Additional observations from a re-analysis of the deposited data

Results flagged for a closer look

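Effects that differed between mutant lines by a test of the difference itself (edgeR, adjusted p under 0.05) are listed here in log2 units, the first-named line minus the second. They were found in 15 members for warmth (12.3% of all tested genes) and 4 for light (4.68%) between Atphyb-9 and Atpif4-2. Both of these counts lay near the share of all. Between Athy5-2 and Atpif4-2 such effects were found in 34 (24.8%) and 30 (17.5%). Between Athy5-2 and Atphyb-9 they were found in 32 (17.5%) and 11 (7.21%).

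For warmth, Atphyb-9 minus Atpif4-2, the values were 2.62 for COR413IM1, 1.24 for GER3 and 0.82 for KCS8, and -1.36 for PHI-1 (a phosphate-responsive wall protein) and -0.84 for the peroxidase AT5G64110. For warmth, Athy5-2 minus Atpif4-2, they were 2.099 for AT1G27020, 1.54 for COR413IM1 and 0.87 for AT3G12710, and -1.46 for AT4G38775, -0.67 for PRP4 and -0.67 for the pectin-lyase-like AT5G49215. For warmth, Athy5-2 minus Atphyb-9, they were 2.25 for TI1, 2.13 for the MATE transporter AT4G23030 and 0.85 for SAG21, and -1.25 for GER3, -1.08 for COR413IM1 and -0.98 for PRP4.

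For light, Atphyb-9 minus Atpif4-2, the values were 0.65 for NIT2, 0.64 for AT5G64110, 0.58 for AT5G49215 and -0.72 for AT5G44580, an uncharacterized protein. For light, Athy5-2 minus Atpif4-2, they were 1.15 for AT4G38775, 0.72 for AT1G04800 and 0.72 for ABCG37, and -2.01 for COR413IM1, -0.82 for SAG21 and -0.78 for AT5G44580. For light, Athy5-2 minus Atphyb-9, they were 0.84 for GSTU22, 0.63 for ABCG37 and 0.40 for GALS2, and -1.95 for COR413IM1, -1.33 for AZI1 and -0.72 for COR413-PM1. COR413IM1 differed in 5 of these 6 comparisons, in both directions.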

How the results depend on the processing

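Of the recomputed counts 545 stayed within 1.5 times and 49 did not. The replicate number did not pair the libraries: same-numbered libraries of different groups had a median correlation of -0.005 (-0.198 to 0.156, 8 of 360 over 0.1), and 13 of 48 correlated best with their own number. With the replicate number as a block, members lower with warmth numbered 41, 33 and 29 and lower with light 77, 81 and 84 in Atpif4-2, Atphyb-9 and Athy5-2, and no count moved by over 1.5 times.

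Library sizes left unscaled, an alternative added after seeing the data, gave 20 members lower with warmth in Atphyb-9, 52 lower with light in Athy5-2, 9 and 29 positive interactions in Atpif4-2 and Athy5-2, 5 higher in Atpif4-2, 21 lower in Atphyb-9, and 23 lower and 28 higher in Athy5-2 than in Col-0. DESeq2 gave 7 positive interactions in Atphyb-9, different warmth effects in 25 and light effects in 8 members between Atphyb-9 and Atpif4-2, and different light effects in 19 between Athy5-2 and Atphyb-9. With only the lines compared, these were 1 positive interaction in Atphyb-9 and 2 different light effects between Atphyb-9 and Atpif4-2. With the ribosomal RNA share as a covariate, 13 were higher in Atpif4-2, 4 lower in Athy5-2, and 19 differed for light between Athy5-2 and Atphyb-9. The cause of these moves was not tested. For the unscaled counts, in the order given, the shares of all tested genes were 5.93, 6.66, 3.64, 48.8, 1.74, 29.4, 50.7 and 5.94%. Counting only even members gave fewer by construction: 49, 50 and 48 lower with light, 18 lower in Atpif4-2, 7 lower and 17 higher in Atphyb-9, 5 lower and 28 higher in Athy5-2, different warmth effects in 20 and light effects in 17 between Athy5-2 and Atpif4-2, and different light effects in 7 between Athy5-2 and Atphyb-9.

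With each library left out in turn, members higher in Atpif4-2 than in Col-0 ranged from 5 to 13 (13 without Col-0 cool dim replicate 1, 5 without Col-0 cool dim replicate 3 or without Atpif4-2 cool bright replicate 1), lower in Athy5-2 from 6 to 14 (14 without Col-0 cool dim replicate 3), different light effects from 1 to 5 between Atphyb-9 and Atpif4-2 (1 or 2 without any of 11 libraries) and from 7 to 19 between Athy5-2 and Atphyb-9 (7 without Atphyb-9 warm dim replicate 1 or Athy5-2 cool bright replicate 3, 19 without Atphyb-9 warm dim replicate 3). The rule kept 65 members, and 26 of the 53 even ones, with TMM-scaled CPM and 62 to 74 with libraries left out.

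Of single genes 5552 recomputed changes kept their side of the threshold, 220 lost it and 20 turned. Unscaled, changes with light in Athy5-2 turned to 0.46 for AT1G04800, 0.093 for RAV1, 0.44 for KCS8, 0.52 for AMT1;3, 0.46 for WIH3, 0.043 for PRP4, 0.17 for TUA5, 0.092 for GER3, 0.074 for GALS2 and 0.12 for WR3. In Atphyb-9 they turned to 0.059 for COR413IM1, 0.089 for WIH3, 0.15 for SUS3, 0.032 for TUA5 and 0.21 for GER3, in Atpif4-2 to 0.073 for ABCG37, and with warmth in Atphyb-9 to 0.045 for TUA5. With the ribosomal RNA share as a covariate AMT1;3 turned to 0.17 and WIH3 to 0.11 with light in Athy5-2, and WIH3 to 0.0014 in Atphyb-9. With 3 libraries a group, changes smaller than their spread were not detectable.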

Other observations

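Chosen again under each of 9 other forms of the rule, 23 of the 100 members were kept every time. They included the even members EXPA11, XTH8, PRP4, KCS8 and GALS2 of the wall and surface, the protection genes SAG21, COR413IM1 and WIH3, and the metabolic genes UGT71C2 and SUS3. Uneven members were kept as well. Those with 1 high library were AZI1, AT1G15010, AT1G77640, AT3G12830, AT1G27020, AT3G56880 and AT5G52050. Those in or near ribosomal DNA were AT3G41768, AT2G01010 and AT2G01021. TCP9, which had the highest score, was not among the 23.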
